A study of Mus musculus with 11 samples.

Results

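The genes described here are the sensors of stress in the endoplasmic reticulum (ER), their targets, and genes that fold, check and export proteins in the ER. The list held 38 genes, and all 38 were measured among the 19938 genes with a probe set of their own. Where a gene had several probe sets, the one with the highest mean was used. The genes comprised 3 sensors, 6 genes downstream of PERK, Xbp1, 9 ER chaperones and co-chaperones, 5 members of the disulfide isomerase family, 8 genes of ER-associated degradation, and 6 genes of translocation into the ER or export from it. They were also read by arm: 7 genes for PERK, 15 for IRE1 and XBP1, 12 for ATF6, and 4 assigned to ATF6 and XBP1 together.

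The unfolded protein response starts from 3 sensors in the ER membrane. PERK (encoded by Eif2ak3) phosphorylates eIF2alpha, which slows translation and favours the factor ATF4. IRE1 (Ern1) splices Xbp1 mRNA so that it encodes an active factor, and ATF6 is cleaved in the Golgi to release an active fragment. XBP1 and ATF6 then act on genes for chaperones, oxidoreductases and degradation. In dendritic cells the IRE1 and XBP1 pathway is known to be active without added stress, and it is best known in the CD8a-type cells that the CD24 marker selects in spleen. Splicing of Xbp1, cleavage of ATF6 and phosphorylation of PERK cannot be read from gene-level array values.

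RNA was measured on 11 Affymetrix mouse arrays of classical dendritic cells (cDCs) sorted by flow cytometry from collagenase-digested spleens of C57BL/6 mice. The groups were CD24+ cDCs of Zeb2 fl/fl mice (3 arrays), CD172a+ cDCs of Zeb2 fl/fl mice (4 arrays), and CD172a+ cDCs of Zeb2 fl/fl mice with CD11c-Cre, a Cre transgene driven by the promoter of an integrin gene that dendritic cells use (4 arrays). All 3 groups carried the floxed allele and only the third carried Cre, so an effect of the transgene and one of the deletion cannot be told apart. Nothing in the labels says that the replicates were separate animals. The p-values therefore set the group differences only against the spread of these samples within groups, and that spread may be technical.

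The level of the targeted gene went against the labels. Zeb2 was at 8.23, 8.23, 8.26 and 8.61 (log2) in control CD172a+ cDCs and at 8.52, 8.32, 9.07 and 9.24 in the CD172a+ arrays labelled Zeb2-deficient, a difference of 0.45 (SE 0.20, limma adjusted p = 0.998). The sources used here do not say whether its probe set covers the deleted part. This group is therefore named by its label, and every direction drawn from it rests on that label. The sorted types carried their defining genes: 9 of 10 cDC1 markers were higher and 9 of 9 cDC2 markers lower in CD24+ than in control CD172a+ cDCs. The arrays also fell into 2 sets that the labels do not name. The first principal component of the residuals, with 62.1% of the residual variance, separated CD24+ replicate 1 and CD172a+ replicates 1 and 2 of both genotypes (the first set, 5 arrays) from the other 6 (the second set). Because each set held all 3 groups, values are also given within sets and with the set as a term of the model (the set block). The sets were read from the residuals of these same values, so adding them lowers the residual spread by construction. Adjusted p-values with the set block may therefore be too low.

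Several promoters of these genes held the ER stress response element. RefSeq promoters (GRCm38.p6, from 250 bases before to 50 after the start site) were found for 33 of the 38 genes. The others were Atf6, Hyou1, Manf, Derl1 and Sec61a1. In all, 4 motifs were searched on both strands: the element known as ERSE (CCAAT, 9 free bases, then CCACG), ERSE-II (ATTGG, 1 free base, then CCACG), a core of the XBP1-bound element UPRE (TGACGTGG), and a core of the ATF4-bound element CARE (TGATGCAA). The UPRE core holds CGTGG, the reverse complement of the last 5 bases of ERSE and ERSE-II, so matches could overlap, but none of those listed here did. ERSE stood in 7 of the 33 genes (21.2%), in 37 of all 27025 genes with a promoter (0.137%), and in 39 of all 32851 promoters of this length (0.119%). The list was chosen to hold targets of the sensors, so a share above that of all genes could be foreseen. The sites are shown because they are the matches to ERSE found on the list, 5 genes of chaperones or isomerases and 2 of degradation, with fixed bases in capitals and free bases in lower case, read from CCAAT to CCACG.
Hspa5: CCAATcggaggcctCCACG, chr2:34772025-34772043
Hsp90b1, distal: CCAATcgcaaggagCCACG, chr10:86705638-86705656
Hsp90b1, proximal: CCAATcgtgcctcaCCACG, chr10:86705533-86705551
Dnajc3: CCAATcagcgccaaCCACG, chr14:118937827-118937845
Creld2: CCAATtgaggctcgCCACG, chr15:88819520-88819538
Pdia6: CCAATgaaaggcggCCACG, chr12:17266491-17266509
Syvn1: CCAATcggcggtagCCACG, chr19:6046532-6046550
Derl3: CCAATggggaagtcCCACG, chr10:75893242-75893260

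The sites of Hspa5, Dnajc3, Pdia6, Syvn1 and the distal site of Hsp90b1 ran in the direction of the gene, and those of Creld2, Derl3 and the proximal site of Hsp90b1 ran against it. Counted from the start site, they lay between base -212 (the first of the distal site in Hsp90b1) and base -26 (the last in Syvn1). ERSE-II was found in Dnajb11 (ATTGGcCCACG, chr16:22857852-22857862, bases 8 to 18 after the start) and Herpud1 (ATTGGgCCACG, chr8:94386377-94386387), and in 0.0365% of all promoters. The UPRE core stood in Sec24d alone among the 33 (0.676% of all promoters), and the CARE core in Chac1 and Herpud1 (0.895%). Over all genes with a promoter the shares were 0.0444% for ERSE-II, 0.714% for the UPRE core and 1.03% for the CARE core. A match describes letters and is neither a site of binding nor a cause.

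The 250 bases before the start site are printed for Hsp90b1, whose promoter had a pair of ERSE matches (chr10:86705445-86705694, minus strand), for Creld2 (chr15:88819396-88819645, plus strand), and for Eif2ak3 (chr6:70844265-70844514, plus strand), the gene that moved in all 3 comparisons. Capitals mark the fixed letters of the ERSE matches, and Eif2ak3 had no match to any of the 4 motifs in this window.
Hsp90b1: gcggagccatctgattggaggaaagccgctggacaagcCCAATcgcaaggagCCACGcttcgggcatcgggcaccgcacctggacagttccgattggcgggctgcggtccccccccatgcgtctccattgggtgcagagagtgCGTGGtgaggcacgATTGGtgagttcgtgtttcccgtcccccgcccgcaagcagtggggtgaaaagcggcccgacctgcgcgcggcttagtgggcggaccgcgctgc
Creld2: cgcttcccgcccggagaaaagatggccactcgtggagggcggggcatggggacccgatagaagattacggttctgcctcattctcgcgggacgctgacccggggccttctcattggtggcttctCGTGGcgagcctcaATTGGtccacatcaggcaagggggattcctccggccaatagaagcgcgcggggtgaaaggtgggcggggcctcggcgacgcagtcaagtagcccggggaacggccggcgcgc
Eif2ak3: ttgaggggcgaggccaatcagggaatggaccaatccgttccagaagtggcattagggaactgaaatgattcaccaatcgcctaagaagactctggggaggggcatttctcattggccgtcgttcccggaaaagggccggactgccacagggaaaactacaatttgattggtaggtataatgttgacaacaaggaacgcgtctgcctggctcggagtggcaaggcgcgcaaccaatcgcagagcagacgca

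The first comparison asked what differed between CD172a+ cDCs labelled Zeb2-deficient and control CD172a+ cDCs. Eif2ak3, which encodes the sensor PERK, was higher in the labelled Zeb2-deficient cells, and it was the only gene of the list to pass the test. Its log2 values were 7.36, 7.45, 7.37 and 7.37 in control CD172a+ cDCs and 8.32, 8.31, 8.49 and 8.97 in the labelled Zeb2-deficient cells. All labelled Zeb2-deficient arrays lay above all controls. The difference was 1.14 on the log2 scale, or 2.20-fold (SE 0.15, 4 against 4 arrays, limma adjusted p = 0.0239), and Eif2ak3 ranked 9 by p among all genes. Across all genes 0.0502% were called in this comparison and 0.0401% were called higher, so 1 of 38 genes (2.63%) compares with 8 of 19938.

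The call of Eif2ak3 was not stable. Its difference kept its direction in both array sets but was larger in the second. It was 0.91 within the first array set and 1.36 within the second, and the set block lowered the adjusted p to 0.00707. Leaving out 1 array at a time, the difference stayed between 0.99 and 1.21. The limma call was lost without any 1 of the 4 control CD172a+ arrays, without labelled Zeb2-deficient replicate 3, and without CD24+ replicate 2 or 3, with adjusted p between 0.0502 and 0.132. With the set block, which was taken from these same values, it was kept in all 11 such fits (adjusted p from 0.00215 to 0.0344).

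**Figure D1:**
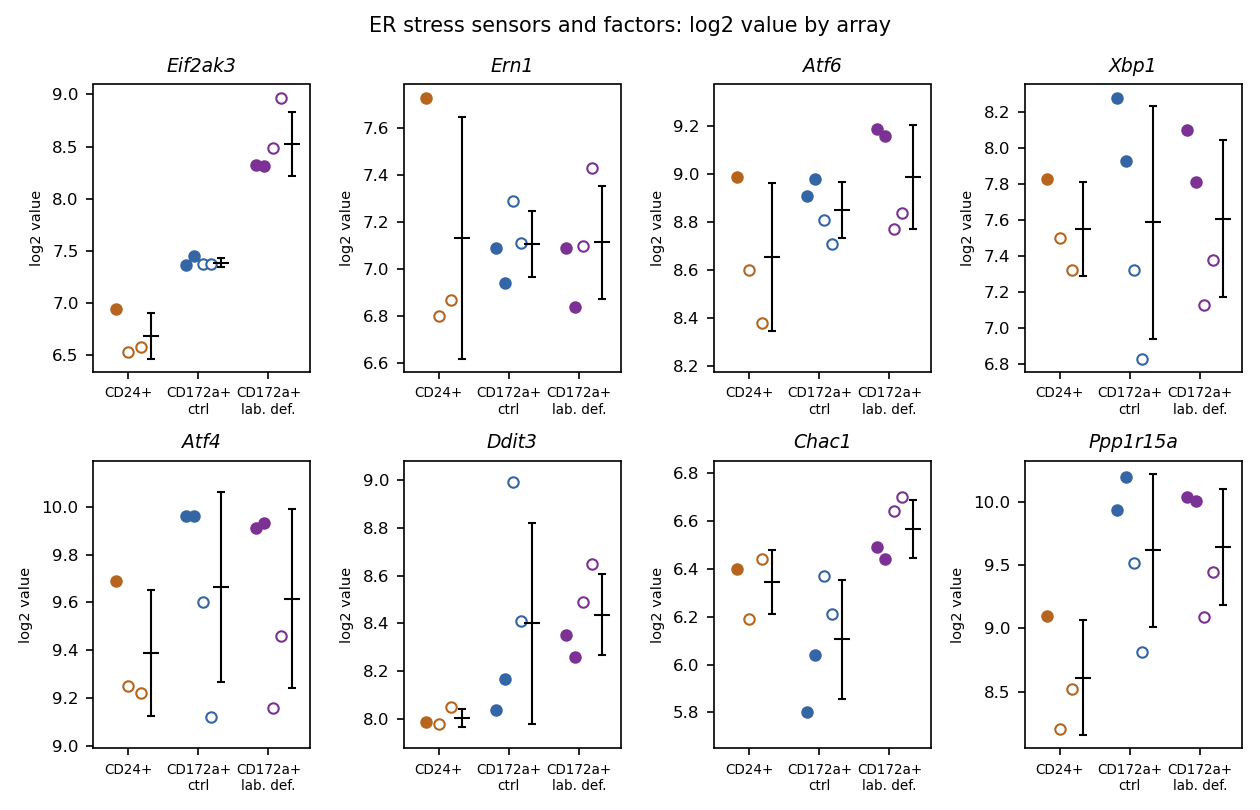
Log2 value of 8 sensor and factor genes on each array, by group (CD24+ control, CD172a+ control and CD172a+ labelled Zeb2-deficient, abbreviated lab. def.); each panel has its own axis, filled points are the first array set and open points the second, and the bars give mean and SD. Eif2ak3 separates the 3 groups, with all labelled Zeb2-deficient arrays at 8.31 or above and all CD24+ arrays at 6.94 or below.

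The other sensors gave no call. Ern1, the sensor kinase and nuclease, was at 7.09, 6.94, 7.29 and 7.11 in control CD172a+ cDCs and at 7.09, 6.84, 7.10 and 7.43 in the labelled Zeb2-deficient cells, a difference of 0.01 (95% interval -0.43 to 0.44). Atf6 was at 8.91, 8.98, 8.81 and 8.71 in controls and at 9.19, 9.16, 8.77 and 8.84 in the labelled group, a difference of 0.14 (95% interval -0.19 to 0.46). The arrays of the groups overlapped for both genes.

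None of the 6 genes downstream of PERK was called beside the higher Eif2ak3 (0 by limma, 1 at an unadjusted p under 0.05, which 3.88% of all genes had). That gene was Chac1, which degrades glutathione and is a target of ATF4 and CHOP. It was at 5.80, 6.04, 6.37 and 6.21 in controls and at 6.49, 6.44, 6.64 and 6.70 in the labelled group. These ranges did not overlap, with a difference of 0.46 (SE 0.13, adjusted p = 0.933). Atf4 itself differed by -0.05 (95% interval -0.55 to 0.45), Ddit3, which encodes the factor CHOP, by 0.04 (-0.36 to 0.43), and Ppp1r15a, the stress-induced subunit of the eIF2alpha phosphatase, by 0.03 (-0.68 to 0.74). Trib3, an inhibitor of AKT and of ATF4, differed by -0.02 and Asns, asparagine synthetase, by 0.15. Both lay below the median of all genes in control cells, where RMA shrinks differences. Chac1 and Eif2ak3 were the only 2 of the 38 genes without overlap between the groups, and both were higher (2.1% of all genes did not overlap, 1.09% higher and 1.01% lower).

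The remaining 29 genes gave 0 calls by limma in this comparison, and 2 of them, Txndc16 and Sec24d, had an unadjusted p under 0.05. Xbp1 differed by 0.02 (95% interval -0.66 to 0.70). The 9 chaperones lay between -0.18 (Hyou1) and 0.36 (Dnajb9, a co-chaperone of BiP). The 8 degradation genes lay between -0.08 (Edem2) and 0.15 (Derl3). The largest differences without a call were in Txndc16, a thioredoxin-domain protein, at 0.66 (SE 0.20, adjusted p = 0.998), and Sec24d, a cargo subunit of the COPII coat, at 0.57 (SE 0.21, adjusted p = 0.998). Txndc16 was called with the set block (adjusted p = 0.0385) and was 0.45 higher within the first set and 0.87 within the second. That call was lost in 9 of the 11 fits that left out an array with the block (highest adjusted p = 0.142). It was kept only without control CD172a+ replicate 1 or CD24+ replicate 1. Txndc16 was also not called with the replicate number as a term instead (adjusted p = 0.187 over all arrays, 0.135 over the compared groups). With the set block 2 genes of the list were called, both higher (0.145% of all genes, 0.0903% higher and 0.0552% lower). The median difference of the 38 genes was 0.02, against 0.01 for all genes.

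Markers of other cells moved in this comparison. The mean of 9 B cell markers was 5.82 to 6.26 on the labelled Zeb2-deficient arrays and 5.38 to 5.74 on the controls. Of these 9 differences 5 were above 0 and 4 below (median 0.07), with 1 called higher by limma. The mean of 8 plasmacytoid cell markers was 6.70 to 6.99 against 6.33 to 6.70, with 4 differences above 0, 4 below and 1 called higher. These 2 means thus rest on part of each list. That of 7 monocyte markers was 5.98 to 6.47 against 6.85 to 7.33, with 2 differences above 0, 5 below and 1 called lower. Of all genes 0.0401% were called higher and 0.01% lower. The mean of 10 plasma cell markers, among them Xbp1 and Derl3, was 5.85 to 5.96 against 5.61 to 5.85, with 9 of 10 differences above 0 (median 0.11) and 0 called by limma (0 at an unadjusted p under 0.05). The part of these lists in the Eif2ak3 difference was not tested. Within the plasma cell list, Jchain, Mzb1, Sdc1 and Tnfrsf17 lay below the median of all genes in every group, between 3.01 (Jchain) and 5.43 (Mzb1). Of the 10 genes of this list, 5 or 6 lay below the median of all genes on each CD172a+ array, and the rest did not. In sorted bulk samples like these, fewer cells of a type and less RNA per cell cannot be told apart.

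The second comparison set CD24+ against CD172a+ cDCs of control mice. CD24+ cDCs had higher levels of ER folding genes and less Eif2ak3. Of the 38 genes, 13 were higher and 1 was lower in CD24+ cDCs (limma, adjusted p from 0.000197 to 0.0285). That is 34.2% higher against a background of 3.25% of all genes higher and 3.16% lower (6.41% called in either direction). The 13 differences ran from 0.58 (Syvn1) to 1.30 (Creld2) on the log2 scale, which is up to 2.47-fold. Without overlap between the groups, 19 genes were higher (background 7.13%) and 1 lower (7.43%). The median difference of the list was 0.43, and that of all genes was -0.02. Markers of other cells also moved. The monocyte list had a mean of 6.20 to 6.21 in CD24+ cDCs and 6.85 to 7.33 in control CD172a+ cDCs, and the B cell list 5.03 to 5.24 against 5.38 to 5.74, neither overlapping. The macrophage list had a mean of 5.12 to 5.76 against 5.73 to 7.15. Within these lists the differences went both ways. For monocyte markers 2 were above 0 and 5 below, for B cell markers 3 and 6, and for macrophage markers 2 and 8. Their part in the differences of the ER genes was not tested.

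**Figure D2:**
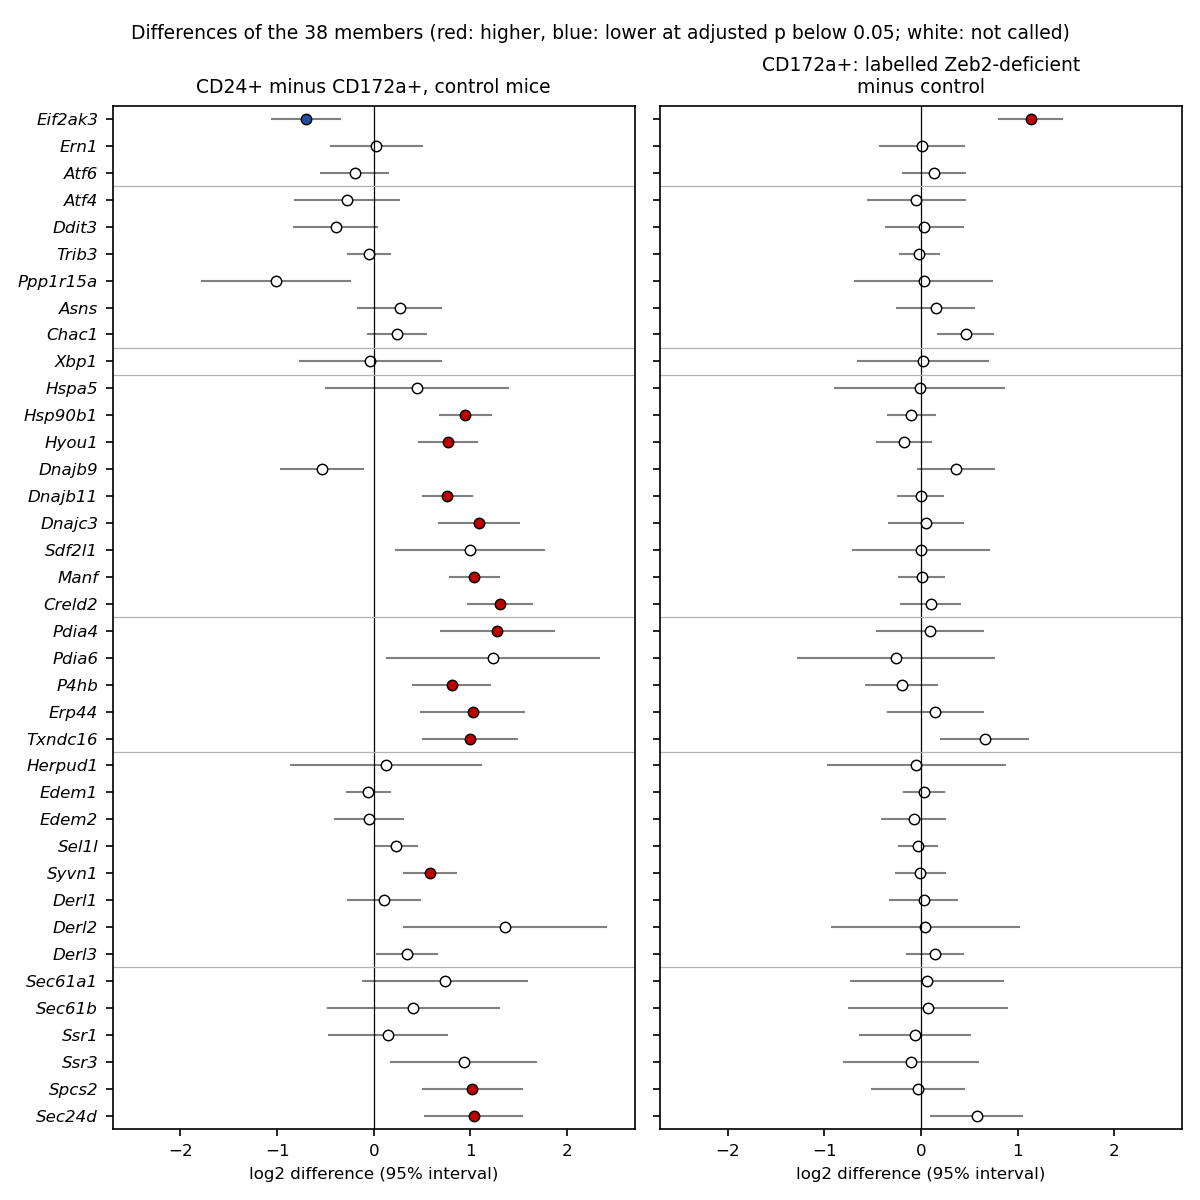
Log2 difference of each of the 38 genes, ordered by role from sensors at the top to translocation and export at the bottom, with its 95% interval; the left panel is CD24+ minus CD172a+ cDCs of control mice and the right panel is labelled Zeb2-deficient minus control CD172a+ cDCs. In the left panel 13 genes are called higher (red) and Eif2ak3 lower (blue), and in the right panel Eif2ak3 alone is called.

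Among the sensors, Eif2ak3 fell by 0.70 in CD24+ cDCs (SE 0.16, 3 against 4 arrays, adjusted p = 0.0237). Its values there were 6.94, 6.53 and 6.58, all under the lowest control CD172a+ array at 7.36. The difference was -0.47 within the first set and -0.81 within the second. The other sensors were not called: Ern1 was at 7.73, 6.80 and 6.87 in CD24+ cDCs (difference 0.03, 95% interval -0.45 to 0.50) and Atf6 between 8.38 and 8.99 (difference -0.20, -0.55 to 0.15). Ern1 pointed in opposite directions in the array sets, at 0.71 in the first, where there was 1 CD24+ array, and -0.36 in the second.

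Of the 6 genes downstream of PERK, 0 were called by limma and 1, Ppp1r15a, had an unadjusted p under 0.05. Ppp1r15a was between 8.2 and 9.10 in CD24+ cDCs and at 9.94, 10.20, 9.52 and 8.81 in control CD172a+ cDCs, which overlap at CD172a+ replicate 4. Its difference was -1.01 (SE 0.35, adjusted p = 0.141), and with the set block it was called lower (-0.88, adjusted p = 0.00251). Ddit3 was at 7.99, 7.98 and 8.05 in CD24+ cDCs and between 8.04 and 8.99 in control CD172a+ cDCs, a difference of -0.40 without a call. The immediate-early list, genes induced within minutes by handling or signals, had a mean of 9.16 to 9.83 in CD24+ cDCs and 9.15 to 10.35 in control CD172a+ cDCs. Of its 20 genes 19 were lower in CD24+ cDCs (median -0.35, or -0.53 within the first set and -0.03 within the second). By limma 0 of the 20 were called, and with the set block 5 were called lower (6.9% of all genes). The part of this list in the values of Ppp1r15a and Ddit3 was not tested. By arm, the 7 PERK genes had a median difference of -0.28, with 0 higher and 1 lower (3.25% and 3.16% of all genes).

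Xbp1 did not differ detectably between the cDC types. It was at 7.83, 7.50 and 7.32 in CD24+ cDCs and at 8.28, 7.93, 7.32 and 6.83 in control CD172a+ cDCs, a difference of -0.04 (95% interval -0.77 to 0.69). In each group the first-set values of Xbp1 were above the second-set values. Of the 15 genes assigned to IRE1 and XBP1, 4 were higher (median 0.41): Txndc16, Erp44, Spcs2 and Sec24d. Over all genes 3.25% were called higher. Of the 12 assigned to ATF6, 6 were higher (median 0.68), and of the 4 assigned to both factors, 3 were (median 0.90). These assignments were chosen for this list and are not exclusive, since a gene can be a target of several arms. Whether the arms differed from each other was not tested.

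By role, ER chaperones had the largest number of calls, though not the largest share, with 6 of 9 higher in CD24+ cDCs (3.25% of all genes). Creld2, a secreted ER stress protein, was at 8.30, 8.29 and 8.35 in CD24+ cDCs and at 7.27, 6.97, 6.64 and 7.15 in control CD172a+ cDCs. Every CD24+ array lay above every control CD172a+ array. The difference was 1.30 (SE 0.15, adjusted p = 0.000261). Manf, a small ER-resident protein that is secreted under stress, was at 8.68, 8.37 and 8.33 against 7.48, 7.40, 7.31 and 7.51, a difference of 1.04 (SE 0.11, adjusted p = 0.000197). Hsp90b1, the HSP90 of the ER (GRP94), was at 11.23, 11.34 and 11.10 against 10.25, 10.12, 10.46 and 10.28, a difference of 0.95 (SE 0.12, adjusted p = 0.000532). None of these genes overlapped between the groups. Dnajc3, an inhibitor of PERK and a co-chaperone of BiP, was at 9.87, 10.70 and 10.64 against 9.24, 9.28, 9.20 and 9.52, a difference of 1.09 (SE 0.19, adjusted p = 0.00435). Dnajb11, a further BiP co-chaperone, was 0.76 higher (adjusted p = 0.00186), and Hyou1, a nucleotide exchange factor for BiP, was 0.77 higher (adjusted p = 0.00525).

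The 3 chaperones without a call were Hspa5, Sdf2l1 and Dnajb9. Hspa5, which encodes BiP, the main HSP70 of the ER, was at 11.62, 11.14 and 10.74 in CD24+ cDCs and at 11.20, 11.39, 10.42 and 9.87 in control CD172a+ cDCs, with a difference of 0.45 (SE 0.43, adjusted p = 0.757). Within the array sets it was 0.32 and 0.80 higher, and it was called with the set block (0.62, adjusted p = 0.0168). Sdf2l1, a partner of BiP, was 1.00 higher without a call (adjusted p = 0.146) and was called with the set block (1.14, adjusted p = 0.000106). Dnajb9 pointed the other way, at 9.04, 8.62 and 8.90 against 9.49, 9.53, 8.91 and 9.64, a difference of -0.54 (adjusted p = 0.159).

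**Figure D3:**
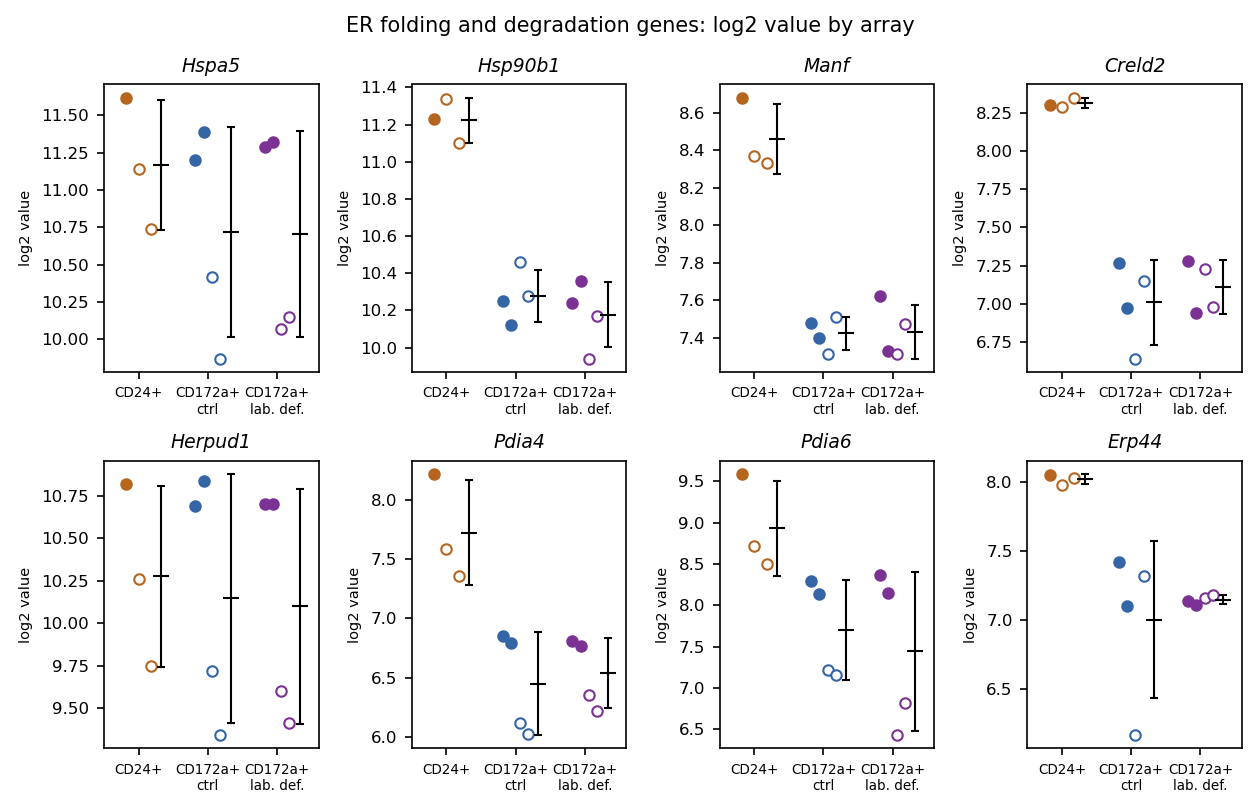
Log2 value of 8 ER folding and degradation genes on each array, by group; each panel has its own axis, filled points are the first array set and open points the second, and the bars give mean and SD. All CD24+ arrays lie above all CD172a+ arrays in Hsp90b1, Manf, Creld2, Pdia4, Pdia6 and Erp44, while Hspa5 and Herpud1 follow the array set in each group.

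In the disulfide isomerase family, 4 of 5 genes were called higher in CD24+ cDCs (3.25% of all genes). None of the 5 overlapped (7.13% of all genes were higher without overlap). Pdia4, a multi-domain isomerase, was at 8.22, 7.59 and 7.36 against 6.85, 6.79, 6.12 and 6.02, a difference of 1.28 (SE 0.27, adjusted p = 0.0145). A second Pdia4 probe set, with a mean of 4.58, differed by 0.97 without a call (adjusted p = 0.128). Erp44, which retains oxidases and unassembled proteins in the early secretory pathway, was at 8.05, 7.98 and 8.03 against 7.42, 7.10, 6.16 and 7.32 (difference 1.02, adjusted p = 0.0285). P4hb, the founding protein disulfide isomerase, was 0.80 higher (adjusted p = 0.0216), and Txndc16 was 0.99 higher (adjusted p = 0.0202). Pdia6 was at 9.59, 8.72 and 8.50 against 8.30, 8.14, 7.22 and 7.16, a difference of 1.23 (SE 0.50) with an adjusted p of 0.235. It was called with the set block (1.44, adjusted p = 4.24e-05).

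Of the 8 degradation genes, Syvn1, the ubiquitin ligase HRD1, was the only call (3.25% of all genes were called higher). It was at 8.23, 8.36 and 8.37 in CD24+ cDCs and at 7.73, 7.93, 7.86 and 7.43 in control CD172a+ cDCs, a difference of 0.58 (SE 0.12, adjusted p = 0.0159). Derl2, a membrane protein of the export channel, had the largest difference on the list, 1.36, but an SE of 0.47 and an adjusted p of 0.147. Its control CD172a+ values were 7.58 and 7.54 in the first set and 6.37 and 6.30 in the second, and its CD24+ values were 8.17, 8.50 and 8.26. Sel1l, the partner of HRD1, differed by 0.23 and Derl3 by 0.35 without overlap and without a call, while Derl1 (0.11), Edem1 (-0.06), Edem2 (-0.05) and Herpud1 (0.13) overlapped.

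Of the 6 genes of translocation and export, 2 were called higher (3.25% of all genes). Spcs2, a subunit of the signal peptidase, was at 9.0, 8.90 and 8.83 against 8.21, 8.09, 7.12 and 8.14 (difference 1.02, SE 0.23, adjusted p = 0.0240). Sec24d was at 6.47, 6.04 and 6.09 against 4.61, 4.92, 5.47 and 5.67 (difference 1.03, SE 0.23, adjusted p = 0.0205). Its control mean lay below the median of all genes, and its difference was 1.70 within the first set and 0.49 within the second. Ssr3, of the translocon-associated complex, was 0.93 higher without overlap and without a call (adjusted p = 0.172). Sec61a1 (0.73), Sec61b (0.41) and Ssr1 (0.15), of the translocon and its partner complex, overlapped.

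How many genes passed depended on single arrays and on the array sets. The count of 14 became 8 without CD24+ replicate 1, 9 without CD24+ replicate 2 and 8 without CD24+ replicate 3, and it lay between 10 and 15 without any other array. Creld2, Dnajb11, Dnajc3, Hsp90b1, Hyou1 and Manf stayed called in all 11 of these fits. Pdia4 was lost without CD24+ replicate 1 (adjusted p = 0.0571), and Syvn1 without CD24+ replicate 2 or 3 (highest 0.0698). Spcs2 was lost without any CD24+ array (highest 0.0805). Txndc16 was lost without CD24+ replicate 1 or 2 or control CD172a+ replicate 4 (highest 0.0841), and Sec24d without CD24+ replicate 1 or 3 or control CD172a+ replicate 2 (highest 0.0845). Erp44 was lost without any CD24+ array or control CD172a+ replicate 2 (highest 0.0955). P4hb was lost without CD24+ replicate 1 or 3 or control CD172a+ replicate 2 or 4 (highest 0.0750), and Eif2ak3 without CD24+ replicate 2 or 3 or control CD172a+ replicate 1 or 2 (highest 0.107).

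With the set block 23 of the 38 genes were called, 21 higher and 2 lower, against 15.4% of all genes called, 8.55% higher and 6.9% lower. All 14 stayed called in each of the 11 fits that left out an array with this block. The 8 genes gained as higher were Derl2, Derl3, Hspa5, Pdia6, Sdf2l1, Sec61a1, Sec61b and Ssr3, and the gain as lower was Ppp1r15a. Of these, Derl2, Pdia6, Sdf2l1, Sec61a1, Ssr3 and Ppp1r15a stayed called in all 11 fits. Hspa5 was lost without CD24+ replicate 2 or control CD172a+ replicate 4 (highest adjusted p = 0.0748), Derl3 without CD24+ replicate 1 or control CD172a+ replicate 1 or 4 (highest 0.170), and Sec61b in 10 of the 11 fits, all but that without control CD172a+ replicate 4 (highest 0.149). Each of the 13 genes called higher without the block was also higher within each set. The differences were 0.40 to 1.70 in the first, where there was 1 CD24+ array, and 0.49 to 1.42 in the second.

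The third comparison set labelled Zeb2-deficient CD172a+ against control CD24+ cDCs, and it shares arrays with both comparisons above. Of the 38 genes, 2 were higher and 10 lower in the labelled Zeb2-deficient cells (12 called, against 7.17% of all genes, 3.25% higher and 3.92% lower). Eif2ak3 was 1.84 higher, or 3.58-fold (SE 0.16, adjusted p = 3.51e-05), and it remained called in all 11 fits that left out an array. Dnajb9 was the other gene called higher. It was at 9.99, 9.83, 9.40 and 9.79 in the labelled group, above CD24+ values of 9.04, 8.62 and 8.90, a difference of 0.90 (SE 0.19, adjusted p = 0.0156), and its call was lost without CD24+ replicate 2 or 3 (highest adjusted p = 0.0781). Side by side, Dnajb9 was -0.54 in CD24+ against control CD172a+ cDCs and 0.36 in labelled Zeb2-deficient against control CD172a+ cDCs, neither of them called.

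The 10 lower genes were Creld2 (-1.20), Pdia4 (-1.19), Spcs2 (-1.06), Hsp90b1 (-1.04), Dnajc3 (-1.04), Manf (-1.03), P4hb (-1.0), Hyou1 (-0.95), Dnajb11 (-0.76) and Syvn1 (-0.59). Labelled Zeb2-deficient values were 7.28, 6.94, 7.23 and 6.98 for Creld2 and 7.62, 7.33, 7.31 and 7.47 for Manf, which overlap the control CD172a+ values and lie below all CD24+ values. Erp44 (-0.88, adjusted p = 0.0546) did not pass. Without single arrays the count lay between 8 and 13. Spcs2 was lost without any CD24+ array or labelled Zeb2-deficient replicate 2 or 4 (highest adjusted p = 0.0640), Pdia4 without CD24+ replicate 1 or 2 or labelled replicate 3 or 4 (highest 0.0791), and Syvn1 without CD24+ replicate 2 or 3 (highest 0.0624). The count without CD24+ replicate 2 was 8. With the set block 22 were called, 4 higher and 18 lower (18.3% of all genes, 7.52% higher and 10.7% lower), with Ppp1r15a and Ddit3 the other higher genes. Ppp1r15a stayed called in all 11 fits that left out an array with the block, and Ddit3 in 4 of 11 (highest adjusted p = 0.141). Of the 20 immediate-early genes 18 were above 0 and 2 below (median 0.30). By limma 1 was called higher (3.25% of all genes), and 7 with the set block (7.52%). B cell markers had 7 differences above 0 and 2 below, with 4 called higher. Monocyte markers had 5 above 0 and 2 below, with 2 called higher and 2 lower. The part of these lists in the ER genes was not tested.

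Over the groups, the order of Eif2ak3 was CD24+ (6.68 ± 0.22, SD, n = 3), control CD172a+ (7.39 ± 0.04, n = 4) and labelled Zeb2-deficient CD172a+ (8.52 ± 0.31, n = 4), with no overlap between neighbours. No other gene of the list was called in all 3 comparisons.

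**Figure D4:**
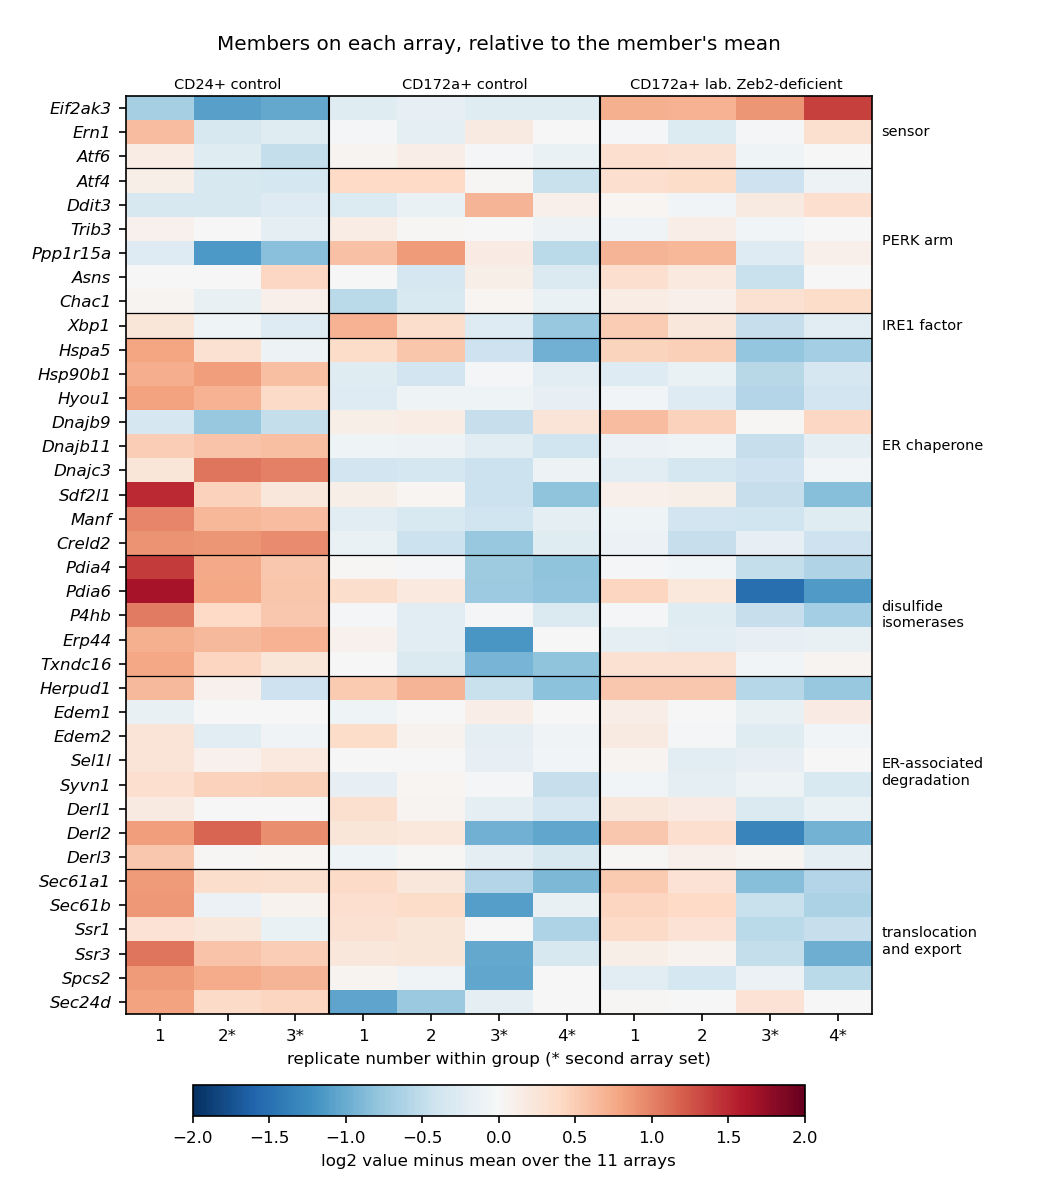
Heat map of the 38 genes (rows, by role) on the 11 arrays (columns, by group and replicate, with second-set arrays starred), as log2 value minus the gene's mean over all arrays, on a scale from -2 to 2. Hsp90b1, Manf and Creld2 are high on the 3 CD24+ columns alone, while Herpud1, Hspa5 and Xbp1 change from unstarred to starred columns within each group.

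Many of these genes also differed between the array sets within groups, which is given as a description. On average over the groups Pdia6 was 1.24 lower in the second set, Herpud1 1.11, Hspa5 1.05, Derl2 0.99, Sec61a1 0.95 and Sec61b 0.95. Herpud1, a ubiquitin-like scaffold of the degradation complex, was at 10.69, 10.84, 10.70 and 10.70 on the first-set CD172a+ arrays and at 9.72, 9.34, 9.60 and 9.41 on the second-set ones. Over all arrays, 9 of the 38 genes were lower in the second set without overlap (23.7%) and 0 were higher, against 6.13% of all genes lower and 4.79% higher. Xbp1, Atf4 and Atf6 were among the 9. The 14 genes called between CD24+ and control CD172a+ cDCs moved with the set by different amounts. Hsp90b1 moved by -0.02, Eif2ak3 by 0.05, Syvn1 by -0.06, Creld2 by -0.08 and Manf by -0.12, while Pdia4 moved by -0.66, Txndc16 by -0.49, P4hb by -0.32, Dnajc3 by 0.26, Sec24d by 0.25 and Spcs2 by -0.25. None of the 14 separated the sets over all arrays, and Pdia4 and Dnajb11 were lower in the second set without overlap on the CD172a+ arrays. Other lists differed between the sets as well. Of 20 immediate-early genes 10 were lower in the second set without overlap (median -0.83), of 13 cytosolic heat shock genes 7 were lower (median -0.63), and of 10 macrophage markers 4 were higher (median 1.07). Their part in the set difference of the ER genes was not tested.

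Wider lists of the same pathways were read for context, with 157 of 168 genes measured. Between the CD172a+ groups 0 of 157 were called by limma (3 at an unadjusted p under 0.05: Yars at -0.49, Phgdh at 0.53 and Tram2 at 0.30, named after their values were seen). With the set block 0 were called as well. Between CD24+ and control CD172a+ cDCs 21 were higher and 5 lower, against 3.25% and 3.16% of all genes. With the set block 53 were higher and 7 lower, against 8.55% and 6.9% of all genes. The counts by list that follow are without the block. The 31 further folding genes gave 8 higher and 0 lower (median 0.42). Pdia5, a disulfide isomerase, was at 9.26, 8.84 and 8.58 in CD24+ cDCs and at 4.71, 4.58, 5.06 and 4.70 in control CD172a+ cDCs. It was thus present well above the median of all genes in CD24+ cDCs and below it in control CD172a+ cDCs, a difference of 4.13 on the log2 scale of RMA (SE 0.17, adjusted p = 1.29e-07). No fold is given, since the control level may lie at background. Pdia3, the isomerase ERp57 that serves glycoproteins and the class I peptide-loading complex, was 1.19 higher (adjusted p = 0.000199). Fkbp2, a prolyl isomerase of the ER, was 1.05 higher (adjusted p = 0.00209) and Canx, the lectin chaperone calnexin, was 0.64 higher (adjusted p = 0.00701).

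Of 18 further translocon and signal recognition genes 5 were higher and 0 lower (median 0.55), led by Spcs3 of the signal peptidase (0.71), Tram2 (0.73), Sec63 (0.87) and Ssr4 (0.92). Of 19 further degradation genes 3 were higher and 0 lower (median 0.15), and these were Vcp, the ATPase that pulls substrates from the membrane (0.84), the mannosidase gene Man1b1 (0.94) and Selenos (1.16). The COPII list gave 1 of 16 higher, the cargo receptor Lman1 (0.96), and the list of ATF6-related factors gave 1 of 7 higher, Creb3l2 (0.38). None of 10 IRE1 partners and targets of its decay activity was called by limma, and 1 had an unadjusted p under 0.05 (Rtcb, the ligase that joins Xbp1 exons, 1.12, adjusted p = 0.236). With the set block 3 of the 10 were called higher: Rtcb (1.30, adjusted p = 0.000451), Ergic3 (0.76, adjusted p = 0.0196) and Bloc1s1 (0.44, adjusted p = 0.0249), all named after their values were seen.

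On the PERK side, the 11 genes for eIF2 kinases and eIF2 control gave 1 higher: Ppp1r15b, the constitutive subunit of the eIF2alpha phosphatase (0.61, adjusted p = 0.0267). The 32 further ATF4 targets and partners went in both directions, with 2 higher and 4 lower in CD24+ cDCs (median 0.15). The higher genes were the tRNA synthetase genes Iars (1.10, adjusted p = 0.00197) and Nars (0.87, adjusted p = 0.00760), and the lower ones included Sesn2 (-0.66, adjusted p = 0.00624) and Nupr1 (-0.72, adjusted p = 0.00790), stress-induced regulators. Among 13 cytosolic heat shock genes 1 was lower, Dnajb4 (-2.37, adjusted p = 0.00591), and 0 were higher. Between labelled Zeb2-deficient CD172a+ and CD24+ cDCs, which reuse the CD24+ arrays, the 157 genes gave 5 higher and 25 lower (3.25% and 3.92% of all genes), and 9 higher and 63 lower with the set block (7.52% and 10.7%).

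ERSE was read against these calls as a description. Of the 11 genes higher in CD24+ cDCs with a promoter, 4 held the element (Hsp90b1, Dnajc3, Creld2 and Syvn1), and of the 22 others with a promoter 3 did (Hspa5, Pdia6 and Derl3). Those 3 were called higher with the set block, at 0.62, 1.44 and 0.39. With that block 21 of the 38 genes were called higher, and 8.55% of all genes. The call of Hspa5 was lost in 2 and that of Derl3 in 3 of the 11 block fits that left out an array. The plasma cell list, which includes Xbp1 and Derl3, was read beside the folding genes. Its mean over 10 genes was 5.21 to 5.46 in CD24+ cDCs and 5.61 to 5.85 in control CD172a+ cDCs. Of the 10 differences 4 were above 0 and 6 below (median -0.03, lowest -3.21). By limma 0 were called higher and 2 lower, against 3.25% and 3.16% of all genes. Irf4 is on this list and also on that of the cDC2 markers, all 9 of which were lower.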

How the data were processed

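The authors deposited log2 expression values per probe set, and the submitters' processing notes name RMA. RMA corrects background, normalizes quantiles between arrays and summarises probes, which shrinks differences near background. The sources used here give no RMA version or settings. Array medians lay between 5.45 and 5.52. Precision is limited by having 11 arrays (8 residual degrees of freedom). Of 30177 probe sets, 21789 carried 1 gene symbol in the platform annotation and gave 19938 genes, each read by its highest-mean probe set. None of the 38 genes shared a probe set with another gene, and 3 had several. Dnajc3 had a pair with identical values.

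Groups and replicate numbers came from the sample titles. The groups were compared with limma 3.58.1 (R 4.3.3), 1 model over all 11 arrays, two-sided, with Benjamini-Hochberg adjustment over all genes and a threshold of 0.05. Standard errors and 95% intervals are limma's. The script was tested on simulated data. Replicate numbers were checked for pairing. Deviations of same-numbered CD172a+ arrays of the 2 genotypes correlated at 0.44 to 0.68 in all 4 pairs. Other-numbered arrays of the same set gave 0.50 to 0.70, so these values cannot tell pairing by number from a shared set. Fits with the number as a term of the model (the replicate block) are given only as an alternative. CD24+ numbers did not pair (-0.44 to 0.59).

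All 38 genes are named. Genes of the wider lists are named where called without overlap, at most 4 per list by smallest p, and markers only as levels. The members, lists and tests were chosen with earlier results of these data known. Each array left out with the set block was an alternative added after seeing the data. Promoters were from RefSeq (GRCm38.p6). Tables and figures used Python 3.11.15 with pandas 2.3.3, numpy 2.4.6 and matplotlib 3.10.9.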

Additional observations from a re-analysis of the deposited data

Results flagged for a closer look

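In groups of 4 arrays, 3 values of the 38 genes stood apart from the other 3 of their group by Dixon's ratio at its 95% critical value, among 76 groups tested. Chance flags about 1 in 20 groups. Eif2ak3 was at 7.45 in control CD172a+ replicate 2, against 7.36 to 7.37 on the other controls, a gap that is small beside the group differences. Spcs2, of the signal peptidase, was at 7.12 in control CD172a+ replicate 3, against 8.09 to 8.21. Sec24d, of the COPII coat, was at 5.95 in labelled Zeb2-deficient replicate 3, against 5.67 to 5.68.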

How the results depend on the processing

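Of the 38 genes, 1 was called between the CD172a+ groups, 14 between CD24+ and control CD172a+ cDCs, and 12 between labelled Zeb2-deficient CD172a+ and CD24+ cDCs. In that order the set block, with sets taken from these same values, gave 2, 23 and 22. A fit of only the 2 groups compared gave 0, 9 and 13. Only the second array set gave 0, 16 and 14, with fewer arrays. The first set held 1 CD24+ array, so no counts are given for it. Leaving out 1 array gave 0 to 1, 8 to 15 and 8 to 13 without the set block, and 1 to 2, 21 to 23 and 19 to 23 with it. The replicate block gave 1, 18 and 18 over all 11 arrays and 1, 8 and 12 over the compared groups with shared numbers. Between the CD172a+ groups it changed no call (Eif2ak3 limma adjusted p = 0.0347 and 0.0287). For CD24+ cDCs the number did not pair arrays. CD24+ replicate 2 was in the second array set and CD172a+ replicate 2 of both genotypes in the first. The counts of this block against CD24+ cDCs therefore mix the number with the array set. Averaging probe sets, testing probe sets separately, keeping genes above the median level, centring or renormalizing arrays, a variance trend, array weights and an adjusted p threshold of 0.1 kept each count within 1.5 times of its value. Signal near background limits Trib3, Asns and Sec24d, and 3 or 4 arrays per group limit genes that follow the array set.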
